A study of Mus musculus with 11 samples.

Results

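The genes described here are 37 cell cycle genes, 16 of DNA replication and 21 of mitosis, among the 56691 genes of a count table from mouse thymic epithelium. They were taken by symbol, and all 37 symbols matched a row of the table. The cells came from 4 to 8 week old mice of the NOD strain, which is prone to autoimmunity, with the genotype WT/WT, WT/R249C or R249C/R249C at Aire, the transcriptional regulator that lets the medulla display tissue antigens. R249C is a change of a single residue of the Aire protein, so the level of Aire RNA checks no genotype label. Cells bearing CD45 were depleted from digested thymus, cells bearing EpCAM were sorted, and their bulk RNA was sequenced. WT/WT has 3 libraries, 1 in batch A and 2 in batch B as the labels name them, WT/R249C has 5, of which 3 are in A and 2 in B, and R249C/R249C has 3, all in A. The titles call the libraries biological replicates, but neither the number of mice behind a library nor their sex is stated in the labels. P-values therefore measure the spread between these libraries.

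Replication begins when the MCM helicase, loaded at origins with the help of Cdc6, is switched on by cyclin E with its kinase and by Cdc45, while Pcna clamps the polymerase to its template and Rrm2 and Tyms make deoxynucleotides. Mitosis is driven by Cdk1 with cyclins A and B, is read by the spindle checkpoint, and ends when the anaphase-promoting complex, with Cdc20 and Ube2c, marks cyclin B for destruction. Ensa is a small phosphoprotein that, once phosphorylated, holds back a form of the phosphatase PP2A and so protects Cdk1 substrates in mitosis. In the thymus, immature medullary epithelium divides and most cells with high Aire have left the cycle, while immature thymocytes divide fast.

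Library totals ran from 60560348 to 182319976 counts, and the 55 pairwise correlations of log CPM (counts per 1000000 of a library's total) from 0.738 to 0.888. WT/R249C replicates 4 and 5 carry contradictory labels, R249C/R249C in the genotype field and WT/R249C in the title. The title was used, and results that rest on them are also given without them. Epithelial markers were present throughout: Epcam, the sorted surface protein, lay between 355 and 521 CPM, and none of 6 thymic epithelial markers was at 0 in any library. Markers of other cells were present as well. The summed level of 15 thymocyte markers ran from 290 to 483 CPM in WT/WT, from 127 to 409 in WT/R249C and from 201 to 296 in R249C/R249C. Of these 15, 6 had at least 1 library at 0, among them Rag2, at 0 in 9 of the 11 libraries. The summed level of 7 B cell markers ran from 1396 to 2996 CPM in WT/WT, from 93.5 to 481 in WT/R249C and from 251 to 533 in R249C/R249C, most of it Igkc. Of these 7, 4 had at least 1 library at 0, among them Ms4a1, at 0 in 6 libraries. Over the 11 libraries the summed level of 6 fibroblast markers ran from 860 to 2309 CPM, with Dcn alone at 671 to 1673. That of 3 general leukocyte markers ran from 179 to 563 CPM and that of 7 myeloid markers from 52.3 to 288. For 4 endothelial markers it ran from 53.0 to 257 CPM, and for 4 erythroid markers from 5.56 to 149. Dividing cells of any of these types would add to the levels of the cell cycle genes, and their part in the results below was not tested. In bulk RNA, fewer dividing cells and less RNA per dividing cell cannot be told apart.

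All 37 genes had counts in each genotype. Mean CPM over the 11 libraries ran from 3.70 for E2f1, a transcription factor of the G1/S switch, to 94.0 for Rrm2, the regulated subunit of ribonucleotide reductase. The genes were uneven from library to library. Among the 18 mitosis genes without a library at 0, the highest library stood at a median of 7.19 times the lowest. The same median was 4.60 for 13 replication genes and 3.91 for 10012 tested genes whose mean CPM lay in the same range. Pcna was the steadiest, at 44.8 to 76.8 CPM, a ratio of 1.71. It has 2 pseudogenes in the annotation that could take reads from it. Its values were 57.8, 57.3 and 68.0 CPM in WT/WT, 70.0, 57.4, 44.8, 76.8 and 51.8 in WT/R249C, and 73.7, 69.7 and 62.6 in R249C/R249C.

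At least 1 library at 0 counts was seen for 6 genes, 16.2% of the 37, beside 14.6% of the tested genes in the same range of mean CPM. WT/WT replicate 1 had no count for Cdc6, the origin licensing ATPase, for Aurkb, the kinase of the chromosomal passenger complex, or for Bub1, a spindle checkpoint kinase. WT/R249C replicate 3, the shallowest library, had none for Ccne1 (cyclin E1), E2f1, Aurka (the centrosomal Aurora kinase), Aurkb or Bub1, and R249C/R249C replicate 3 had none for Cdc6. A count of 0 allows up to 3 counts, or 0.0495 CPM in the shallowest library, for counting error only. Kif20a, a kinesin of the central spindle, had 22 counts (0.363 CPM) in WT/R249C replicate 3 and between 24.3 and 101 CPM in the other 10 libraries. That same library held the highest value of 9 of the 37 genes, among them Tpx2, a spindle assembly factor, at 139 CPM against 20.9 to 67.7 elsewhere. It thus held extremes of both kinds.

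**Figure D1:**
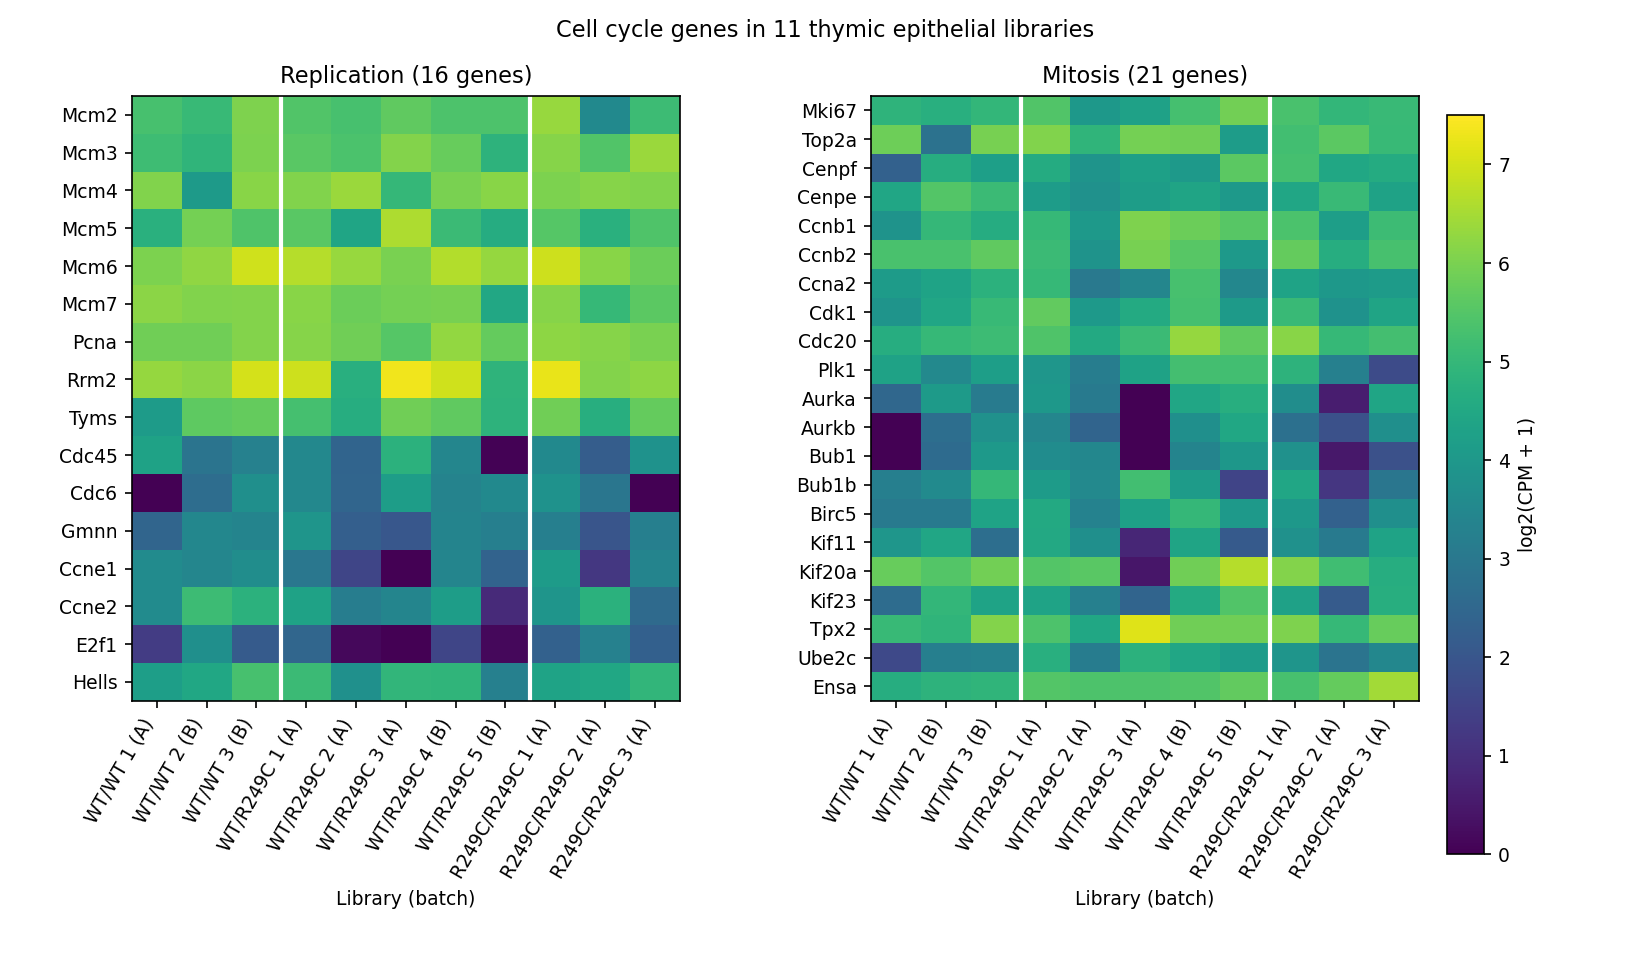
Levels of the 16 replication genes and the 21 mitosis genes as log2(CPM + 1), colour scale, in each of the 11 libraries, with white lines between the genotypes and the batch in brackets. The dark cells are the libraries at or near 0, for example Aurka, Aurkb and Bub1 in WT/R249C replicate 3, and no block of a single genotype stands out.

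The 2 groups of genes are known for different promoter elements: E2F sites, which drive transcription before S phase, and the CHR element and CCAAT boxes, which the DREAM and NF-Y complexes use for late genes. RefSeq promoter windows of build GRCm38.p6, from 250 bases before to 50 after a gene's start, were found for 30 of the 37 genes (31 windows, since Mcm7 has a pair). The authors' build was mm39, so the coordinates here belong to RefSeq's build alone. The 250 bases before the start are printed for 3 mitosis genes with a CHR word, for Ensa, which has none, and for 2 replication genes with E2F words. Capitals mark the words searched on both strands: TTTGAA for the CHR element, the CCAAT box, and for E2F the word TTGGCGC and its variants TTCGCGC, then TTCCCGC, and lastly TTGCCGC.
Cdk1: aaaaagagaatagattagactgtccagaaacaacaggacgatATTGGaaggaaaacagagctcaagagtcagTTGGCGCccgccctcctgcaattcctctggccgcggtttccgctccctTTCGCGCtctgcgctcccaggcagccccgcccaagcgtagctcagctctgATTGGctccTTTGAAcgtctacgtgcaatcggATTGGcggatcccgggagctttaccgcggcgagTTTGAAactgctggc
Top2a: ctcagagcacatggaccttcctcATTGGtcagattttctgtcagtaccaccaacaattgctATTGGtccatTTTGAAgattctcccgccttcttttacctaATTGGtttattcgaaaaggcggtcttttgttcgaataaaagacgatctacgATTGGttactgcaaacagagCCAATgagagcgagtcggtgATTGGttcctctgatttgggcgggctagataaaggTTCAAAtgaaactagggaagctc
Ube2c: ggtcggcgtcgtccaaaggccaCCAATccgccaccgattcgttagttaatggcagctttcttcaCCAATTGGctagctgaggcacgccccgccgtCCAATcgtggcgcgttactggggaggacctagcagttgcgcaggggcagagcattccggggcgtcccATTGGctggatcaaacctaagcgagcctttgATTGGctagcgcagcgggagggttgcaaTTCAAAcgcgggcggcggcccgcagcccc
Ensa: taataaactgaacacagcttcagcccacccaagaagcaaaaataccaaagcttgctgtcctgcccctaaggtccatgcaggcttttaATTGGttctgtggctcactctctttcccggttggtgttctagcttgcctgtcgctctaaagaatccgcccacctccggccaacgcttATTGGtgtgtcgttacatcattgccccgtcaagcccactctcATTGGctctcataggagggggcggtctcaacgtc
Mcm6: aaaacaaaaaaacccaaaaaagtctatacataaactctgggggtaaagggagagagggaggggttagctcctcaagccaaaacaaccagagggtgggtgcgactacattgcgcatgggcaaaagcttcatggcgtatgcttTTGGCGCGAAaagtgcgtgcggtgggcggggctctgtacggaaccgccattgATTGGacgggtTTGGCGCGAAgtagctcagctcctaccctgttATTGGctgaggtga
Hells: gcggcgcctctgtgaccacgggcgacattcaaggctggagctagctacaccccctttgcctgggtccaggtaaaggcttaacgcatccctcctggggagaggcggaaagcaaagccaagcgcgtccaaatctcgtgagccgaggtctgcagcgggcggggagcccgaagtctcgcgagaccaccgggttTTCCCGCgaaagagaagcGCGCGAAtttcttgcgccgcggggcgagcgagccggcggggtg

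These windows lie at chr10:69352913-69353162 on the minus strand for Cdk1, the mitotic kinase, and at chr11:99024190-99024439 on the minus strand for Top2a, the topoisomerase that untangles sister chromatids. Ube2c, the ubiquitin-conjugating enzyme of the anaphase-promoting complex, has its window at chr2:164769679-164769928 on the plus strand, and Ensa at chr3:95624730-95624979 on the plus strand. Mcm6, a subunit of the helicase, lies at chr1:128359706-128359955 on the minus strand and Hells, a chromatin remodelling helicase, at chr19:38930740-38930989 on the plus strand. Counting from -1 at the last base before the start, the CHR words of Cdk1 begin at -71 and -15 and those of Top2a at -179 and -23, each set among several CCAAT words. Mcm6 holds E2F words at -109, -106, -46 and -43, in 2 overlapping pairs on opposite strands.

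Over the whole 300-base windows, the CHR word occurred in 12 of 17 mitosis genes and 2 of 13 replication genes, beside 20.2% of the 27025 genes with a window. E2F words occurred in 3 of 17 mitosis genes and 7 of 13 replication genes, beside 10.9% of all genes. CCAAT was in 16 of 17 mitosis genes and 8 of 13 replication genes, beside 41.1% of all genes. E2F and CCAAT words share bases in 2 of the genes' windows, those of Ccnb1 and Mcm7. A word is a string of letters and not a mapped site, and the groups were drawn up by function, not by promoter. Cdk1 and Mki67 (the proliferation marker Ki-67) held all 3 kinds of word, and Ensa held CCAAT alone, at -163, -76 and -34. Bub1, Cenpe and Pcna held CCAAT alone as well.

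**Figure D2:**
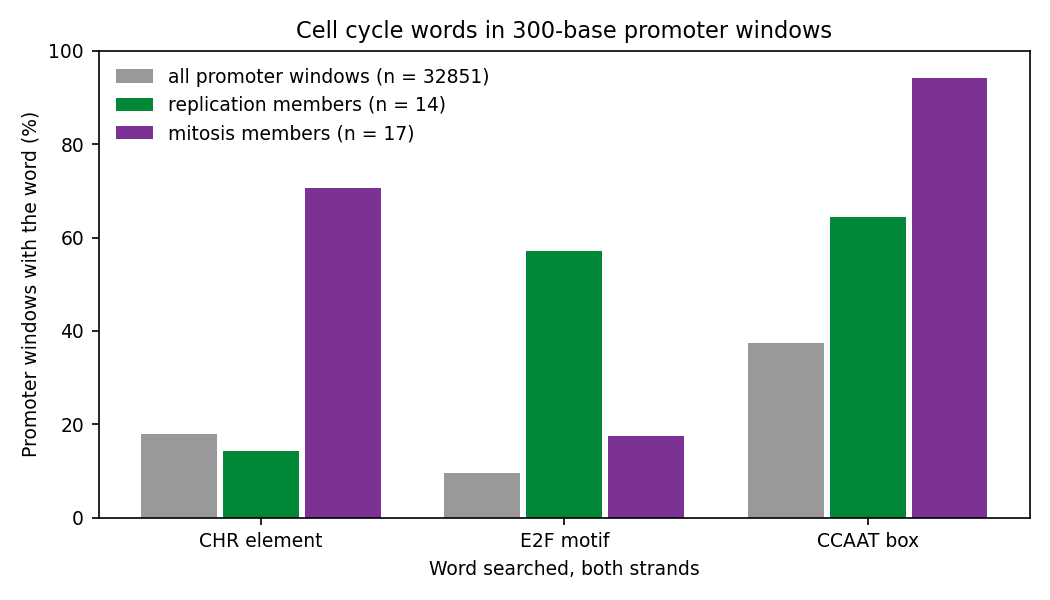
Percent of promoter windows of 300 bases (vertical axis) that hold each kind of word on either strand, for all 32851 windows, the 14 windows of replication genes and the 17 of mitosis genes. The CHR word is in 70.6% of the mitosis windows and 14.3% of the replication windows, and E2F words are in 17.6% and 57.1%.

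The summed CPM of the 16 replication genes was 520, 559 and 794 in WT/WT, 703, 460, 715, 689 and 407 in WT/R249C, and 817, 487 and 587 in R249C/R249C, in order of replicate. The groups overlapped throughout, with means of 625 ± 148 (SD, n = 3), 595 ± 149 (n = 5) and 630 ± 169 (n = 3). The summed CPM of the 21 mitosis genes was 388, 458 and 603 in WT/WT, 625, 332, 592, 738 and 663 in WT/R249C, and 662, 389 and 530 in R249C/R249C. Again each group spanned much of the whole range, with means of 483 ± 110 (SD, n = 3), 590 ± 154 (n = 5) and 527 ± 136 (n = 3). A sum leans on the genes with the most counts.

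Most libraries that were low for one group of genes were low for the other, and one was not. WT/R249C replicate 2 ranked 10 of 11 for replication and 11 for mitosis, and R249C/R249C replicate 2 ranked 9 for both. WT/R249C replicate 5 had the lowest replication sum, 407 CPM, and the second highest mitosis sum, 663 CPM. Its ratio of mitosis to replication was 1.63, while the other 10 libraries lay between 0.723 and 1.07. It had the lowest value of 5 replication genes, among them Cdc45, the helicase activator, with 3 counts (0.0361 CPM against 3.67 to 27.4 elsewhere). It had the highest value of 6 mitosis genes, among them Kif20a at 101 CPM and Kif23, the other kinesin of the central spindle, at 43.1 CPM. It is one of the libraries with contradictory labels, is in batch B, and had the lowest thymocyte marker sum, 127 CPM.

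**Figure D3:**
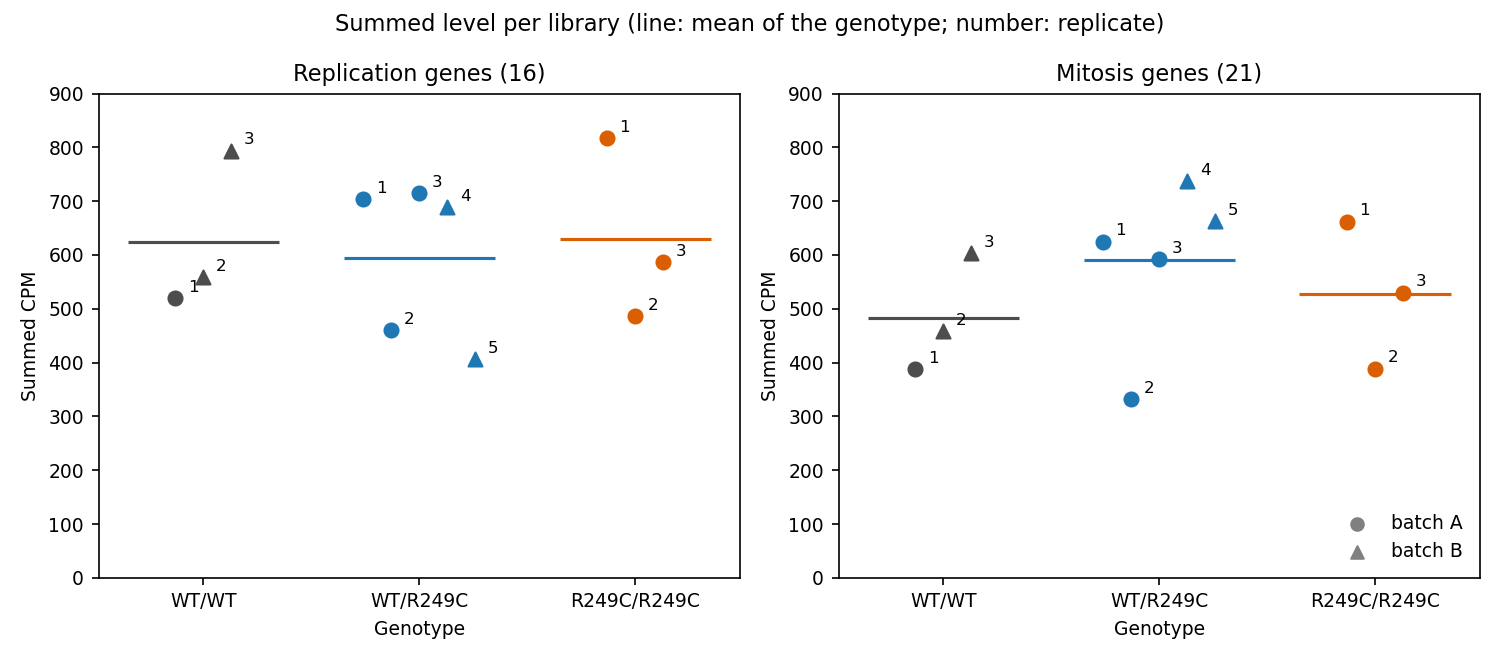
Summed CPM (vertical axis) of the 16 replication genes, left, and the 21 mitosis genes, right, per library, by genotype; circles are batch A, triangles batch B, numbers are replicates and lines the means. WT/R249C replicate 5 is lowest on the left at 407 and second highest on the right at 663.

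Genotypes were compared gene by gene with the quasi-likelihood test of edgeR over all genes tested, with batch as a term where both batches entered, so that fitted log2 fold changes are adjusted for batch and CPM values are not. R249C/R249C and WT/R249C share the WT/WT libraries as their control. No cell cycle gene passed an adjusted p of 0.05 in any of the 3 comparisons, nor did any gene of the table. Between R249C/R249C and WT/WT, 0.0% of 29569 genes were called by edgeR and 3.45% had an unadjusted p below 0.05 (1.91% higher and 1.54% lower), and 3 of the 37 did (8.11%), all higher: Ensa, Cenpf and Cdc20. Between WT/R249C and WT/WT, 0.0% were called and 3.36% had an unadjusted p below 0.05 (1.77% higher and 1.59% lower), and 4 of the 37 did (10.8%): Ensa, Ube2c and Ccnb1 higher and Cenpe lower. Between the mutant genotypes, within batch A, 0.0% of 23695 genes were called and 1.08% had an unadjusted p below 0.05 (0.506% higher and 0.574% lower), and 0 of the 37 did. DESeq2 called 1.77%, 1.16% and 0.139% of the genes in the same order and, of the 37, Ensa in the first comparison. limma voom called none.

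The replication genes showed no common direction. Of the 16, 10 had a higher and 6 a lower fitted level in R249C/R249C than in WT/WT, with a median log2 fold change of 0.20, beside -0.02 over all 29569 genes tested, of which 49.1% were higher. In WT/R249C against WT/WT, 7 were higher and 9 lower, with a median of -0.06 beside 0.03 over all genes, of which 51.5% were higher. Between the mutant genotypes, 8 were higher in R249C/R249C and 8 lower, with a median of 0.03 beside 0.01 over all genes, of which 50.8% were higher. The medians turned sign with single libraries. The first rested on WT/WT replicate 1, which alone stands for WT/WT in batch A: without it the median was -0.22. Without a batch term it was -0.03, with 6 of 16 higher. The second was 0.20 without WT/R249C replicate 5 and -0.33 without WT/WT replicate 1, and the third -0.15 without R249C/R249C replicate 1.

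Of the MCM helicase subunits, Mcm2 stood at 38.8, 31.9 and 65.3 CPM in WT/WT, at 43.1, 38.5, 50.4, 41.1 and 41.7 in WT/R249C, and at 79.5, 10.7 and 34.1 in R249C/R249C. R249C/R249C held both its highest and its lowest library, and the fitted log2 fold change against WT/WT was -0.02 ± 0.70 (SE). Mcm5 ran from 26.0 to 60.3 CPM in WT/WT, from 20.3 to 93.6 in WT/R249C and from 26.2 to 44.9 in R249C/R249C, with log2 fold changes against WT/WT of -0.34 ± 0.71 in R249C/R249C and -0.12 ± 0.56 in WT/R249C. Mcm3 was 34.8, 29.2 and 64.5 CPM in WT/WT, 47.1, 40.5, 68.3, 52.8 and 28.1 in WT/R249C and 69.4, 43.5 and 81.9 in R249C/R249C. Its mean was highest in R249C/R249C, 64.9 ± 19.6 (SD, n = 3), and the groups overlapped.

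Mcm7 was the most even of the helicase subunits in WT/WT and was lower in most mutant libraries. It stood at 72.6, 67.1 and 67.5 CPM in WT/WT, at 70.5, 55.4, 59.6, 61.8 and 21.8 in WT/R249C, and at 70.0, 31.3 and 47.8 in R249C/R249C. In all, 4 of 5 WT/R249C and 2 of 3 R249C/R249C libraries were below all WT/WT libraries, and the log2 fold changes against WT/WT were -0.48 ± 0.38 in WT/R249C (edgeR, unadjusted p = 0.244) and -0.70 ± 0.49 in R249C/R249C (unadjusted p = 0.186). Exons of Mcm7 overlap those of Ap4m1 and Cops6 on the opposite strand, and no label says whether counting used the strand. Mcm4 lay between 16.1 and 82.0 CPM and Mcm6 between 54.8 and 124 over the 11 libraries.

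Rrm2 had wide swings inside each genotype. It was 79.1, 73.0 and 128 CPM in WT/WT, 122, 25.8, 161, 124 and 28.2 in WT/R249C, and 150, 68.3 and 74.5 in R249C/R249C. The 2 low WT/R249C libraries, replicates 2 and 5, are the ones with the lowest replication sums, of which Rrm2 is itself a part. The group means of 93.2 ± 29.9 (SD, n = 3), 92.2 ± 61.6 (n = 5) and 97.5 ± 45.4 (n = 3) CPM differed by far less than the spread inside each genotype. The log2 fold changes against WT/WT were 0.03 ± 0.85 in R249C/R249C and -0.07 ± 0.67 in WT/R249C. Pcna, the steadiest, had 95% intervals against WT/WT of -0.34 to 0.94 in R249C/R249C and -0.48 to 0.54 in WT/R249C on the log2 scale, the narrowest of the 16. Tyms, thymidylate synthase, ran from 16.2 to 57.8 CPM, and Hells from 8.63 to 38.8 CPM, with log2 fold changes for Hells of -0.10 ± 0.68 in R249C/R249C and -0.16 ± 0.54 in WT/R249C. Tyms too has a pseudogene in the annotation.

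Among the regulators of S phase entry, Ccne1 was at 11.4, 9.77 and 11.8 CPM in WT/WT and at 6.78, 1.96, 0, 9.66 and 4.28 in WT/R249C, so that all 5 WT/R249C libraries were below all 3 WT/WT libraries. It was 16.3, 1.30 and 9.38 CPM in R249C/R249C, with libraries above and below all WT/WT libraries. Ccne1 and Cenpe were the 2 of 37 genes (5.41%) with no overlap in the lower direction in WT/R249C, beside 1.73% of the genes tested. The fitted 95% interval for Ccne1 ran from -4.36 to 1.95. Ccne2 (cyclin E2) was 11.2, 34.6 and 27.5 CPM in WT/WT, 19.2, 8.14, 9.64, 17.2 and 0.854 in WT/R249C and 14.1, 26.5 and 5.08 in R249C/R249C, with a log2 fold change of -1.02 ± 1.01 in WT/R249C (edgeR, unadjusted p = 0.340). That value was -2.46 without WT/R249C replicate 4 and -0.32 without replicate 5. Its exons overlap Ints8 on the opposite strand. Cdc45 had log2 fold changes against WT/WT of -1.05 ± 1.52 in R249C/R249C and -0.54 ± 1.20 in WT/R249C. Without WT/R249C replicate 4 these were -3.95 and -3.83, and without the batch term the first was -0.28, while without WT/R249C replicate 5 the second was -0.0761. Cdc6, E2f1 and Gmnn (geminin, the inhibitor of relicensing) stayed at or below 17 CPM in every library.

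In the fit with a batch term, the mitosis genes were more often higher than lower in both mutant genotypes, without any passing the test. Of the 21, 17 had a higher fitted level in WT/R249C than in WT/WT and 4 a lower one, with a median log2 fold change of 0.57. Over all genes tested the median was 0.03, and 51.5% were higher. In R249C/R249C, 16 were higher and 5 lower, with a median of 0.41 beside -0.02 over all genes, of which 49.1% were higher. By plain mean CPM, 9 of the 21 were higher in R249C/R249C. Between the mutant genotypes, 13 were higher in R249C/R249C and 8 lower, with a median of 0.15 beside 0.01, which was -0.13 without WT/R249C replicate 2 and 0.57 without WT/R249C replicate 1. Ensa had been noted in earlier results of these data for its difference, and without it 16 of 20 and 15 of 20 mitosis genes were higher in WT/R249C and R249C/R249C.

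Within batches the WT/R249C median was 0.75 in batch A, against the single WT/WT library there, with 13 of 21 (61.9%) higher beside 61.0% of all genes and an all-gene median of 0.40, and 0.61 in batch B, with 17 of 21 higher beside an all-gene median of -0.04. Batch B rests on the 2 libraries with contradictory labels. Without them the fit sets every mutant library against WT/WT replicate 1, and the median was 0.72 with 13 of 21 higher beside 58.9% of all genes and an all-gene median of 0.34. Leaving out any single library gave medians of 0.42 to 0.71. The R249C/R249C median depended on the batch term and on single libraries: it was -0.01, with 10 of 21 higher, without the batch term, and 0.03 without R249C/R249C replicate 1. By plain mean CPM, 9 of the 21 were higher in R249C/R249C than in WT/WT and 15 were higher in WT/R249C. Thymocyte markers went the other way, with 13 of 15 lower in each mutant genotype (medians -0.87 in WT/R249C and -1.02 in R249C/R249C), as did all 7 B cell markers. In the same fit, markers of the sorted cells themselves were higher: all 6 thymic epithelial markers in both mutant genotypes (medians 0.43 and 0.31), 5 of 6 cortical ones in both (0.65 and 0.50), and 4 and 5 of 6 medullary ones (0.25 and 0.50). Endothelial markers were higher too, 4 of 4 in both (0.88 and 0.68), as were 5 and 6 of 7 myeloid markers (0.15 and 1.16). Of 6 fibroblast markers, 5 were lower in WT/R249C (median -1.68) and 2 in R249C/R249C (median 0.05). The part of these cells in the mitosis values was not tested.

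Of the mitotic cyclins, Ccnb1 (cyclin B1) was 13.6, 30.7 and 24.2 CPM in WT/WT, 31.5, 15.3, 65.8, 55.6 and 46.3 in WT/R249C, and 40.5, 17.6 and 34.2 in R249C/R249C. In all, 4 of 5 WT/R249C libraries and 2 of 3 R249C/R249C libraries were above all WT/WT libraries. The log2 fold change was 1.12 ± 0.47 in WT/R249C (edgeR, unadjusted p = 0.0407, adjusted p = 1.00) and 0.99 ± 0.58 in R249C/R249C (unadjusted p = 0.124). Ccnb2 (cyclin B2) had no such shift, with means of 43.2 ± 5.43 (SD, n = 3), 34.0 ± 20.1 (n = 5) and 38.3 ± 13.6 (n = 3) CPM, and log2 fold changes of -0.37 ± 0.51 in WT/R249C and -0.16 ± 0.65 in R249C/R249C. Whether the 2 cyclins differ in response was not tested, and each has a pseudogene in the annotation that could take reads from it. Ccna2 (cyclin A2) was 16.3, 19.5 and 27.2 CPM in WT/WT, 31.8, 7.16, 9.92, 39.0 and 10.1 in WT/R249C, and 19.5, 15.0 and 16.4 in R249C/R249C. WT/R249C lay on both sides of WT/WT, and the log2 fold changes were 0.07 ± 0.60 in WT/R249C and 0.12 ± 0.75 in R249C/R249C.

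Cdk1 was 13.9, 20.6 and 32.4 CPM in WT/WT, 50.4, 15.6, 23.1, 38.4 and 16.04 in WT/R249C, and 32.7, 13.1 and 19.7 in R249C/R249C. The groups overlapped, with log2 fold changes against WT/WT of 0.49 ± 0.57 in WT/R249C and 0.21 ± 0.71 in R249C/R249C. Cdc20, the activator of the anaphase-promoting complex, was 24.4, 31.2 and 34.2 CPM in WT/WT, 41.9, 22.4, 33.5, 79.0 and 49.5 in WT/R249C, and 70.2, 31.8 and 37.7 in R249C/R249C. In WT/R249C 3 of 5 libraries and in R249C/R249C 2 of 3 were above all WT/WT libraries, and the log2 fold change was 1.20 ± 0.45 in R249C/R249C (edgeR, unadjusted p = 0.0249, adjusted p = 1.00) and 0.73 ± 0.36 in WT/R249C (unadjusted p = 0.0722). Without the batch term the R249C/R249C value was 0.70. Its exons overlap Elovl1 on the opposite strand, a gene with 48.7 to 77.9 CPM in WT/WT.

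Ube2c had the largest fitted difference among those of the 37 genes with an unadjusted p below 0.05 in WT/R249C against WT/WT. It was 2.15, 8.46 and 8.81 CPM in WT/WT, 25.7, 7.87, 27.0, 20.8 and 16.6 in WT/R249C, and 13.9, 6.36 and 10.1 in R249C/R249C. Of the 5 WT/R249C libraries, 4 were above all WT/WT libraries, and replicate 2, at 7.87 CPM, lay among the WT/WT values. The log2 fold change was 1.91 ± 0.65 (edgeR, unadjusted p = 0.0169, adjusted p = 1.00), with a 95% interval of 0.43 to 3.39. The DESeq2 adjusted p was 0.0553. In R249C/R249C the value was 1.21 ± 0.80 against WT/WT, and -0.94 ± 0.60 against WT/R249C in batch A, neither passing. The WT/R249C value was 1.16 in batch B alone and 1.16 without WT/WT replicate 1, the library at 2.15 CPM, and without that library the R249C/R249C value against WT/WT was 0.27. Exons of Ube2c overlap Tnnc2 on the opposite strand, which ran from 0 to 11.1 CPM and was lower in WT/R249C (mean 1.51 ± 1.42, SD, n = 5) than in WT/WT (7.82 ± 3.78, n = 3).

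Cenpe, the kinesin that carries chromosomes to the spindle equator, went the other way. It was 20.8, 43.9 and 33.9 CPM in WT/WT, 16.8, 12.8, 17.1, 19.7 and 15.3 in WT/R249C, and 20.9, 33.0 and 19.1 in R249C/R249C. All 5 WT/R249C libraries lay below all WT/WT libraries, and in batch A all 3 R249C/R249C libraries lay above the 3 WT/R249C libraries, the only one of the 37 (2.70%) to do so beside 3.45% of the genes tested, and none lay below, beside 5.41%. The log2 fold change in WT/R249C was -0.85 ± 0.30 (edgeR, unadjusted p = 0.0182, adjusted p = 1.00), and in R249C/R249C against WT/WT it was -0.07 ± 0.38. Against WT/R249C, R249C/R249C was at 0.68 ± 0.36 (unadjusted p = 0.102). Cenpf, a kinetochore protein that peaks in G2 and mitosis, was 4.02, 24.6 and 17.8 CPM in WT/WT, 23.3, 13.7, 18.3, 15.2 and 48.2 in WT/R249C, and 38.1, 21.3 and 23.3 in R249C/R249C. Its fitted log2 fold change in R249C/R249C against WT/WT was 2.02 ± 0.69 (edgeR, unadjusted p = 0.0164). That value was 0.90 without the batch term and 1.29 without WT/WT replicate 1, the library at 4.02 CPM.

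Mki67 was 28.3, 25.7 and 30.3 CPM in WT/WT, 42.8, 15.1, 18.4, 37.9 and 58.8 in WT/R249C, and 39.5, 30.4 and 32.8 in R249C/R249C. All 3 R249C/R249C libraries were above all WT/WT libraries, by a margin of 30.4 to 30.3 CPM at the closest, and WT/R249C lay on both sides. Mki67 and Ensa were the 2 of 37 genes (5.41%) with no overlap in the higher direction in R249C/R249C, beside 3.16% of the genes tested, and none was in the lower direction, beside 4.4%. Ensa was listed with its difference known. Without it, 1 of 20 mitosis genes (5.0%) and 0 of 16 replication genes had no overlap in the higher direction. The log2 fold changes of Mki67 were 0.67 ± 0.49 in R249C/R249C (edgeR, unadjusted p = 0.210) and 0.37 ± 0.40 in WT/R249C (unadjusted p = 0.377). Without WT/WT replicate 1 they were 1.33 and 0.83, and without the libraries of contradictory label they were 0.28 and -0.20. Top2a was 56.1, 6.12 and 60.8 CPM in WT/WT, 66.4, 29.0, 59.9, 58.1 and 16.6 in WT/R249C, and 36.6, 48.0 and 32.5 in R249C/R249C, with log2 fold changes of 0.06 ± 0.67 in WT/R249C and -0.36 ± 0.84 in R249C/R249C. WT/WT held both its lowest library and one of its highest.

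**Figure D4:**
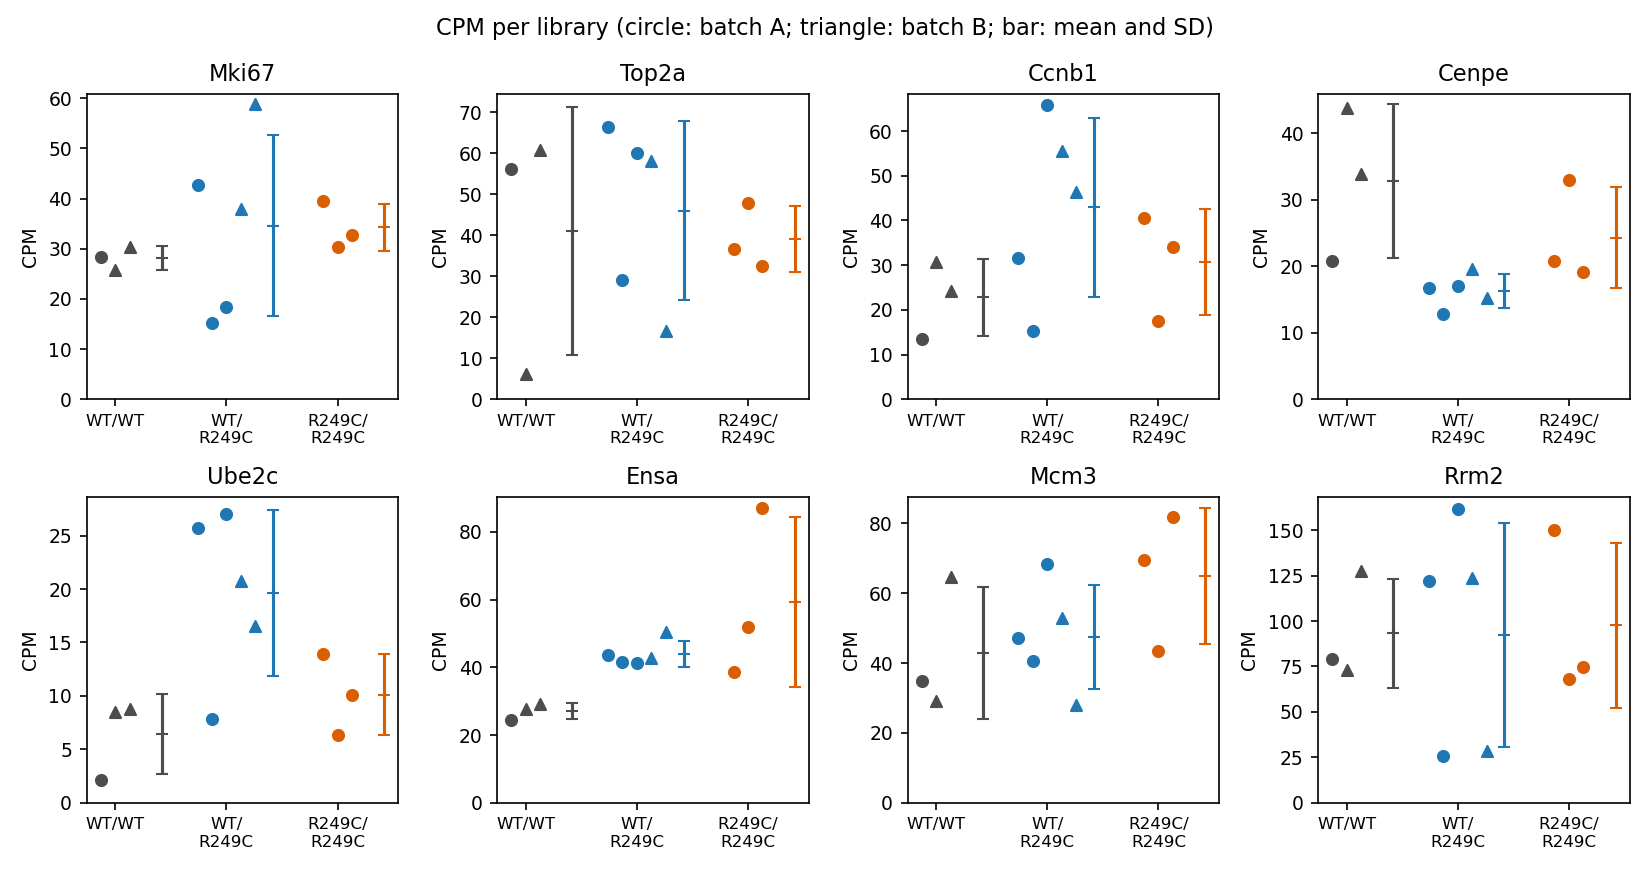
CPM (vertical axis, from 0) of 6 mitosis and 2 replication genes in each library by genotype; circles are batch A, triangles batch B, and bars give the mean and SD of the genotype. Ensa in the mutant libraries lies above WT/WT and Cenpe in WT/R249C lies below it, while Top2a, Rrm2 and Mcm3 overlap between genotypes.

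The remaining kinases, checkpoint proteins and kinesins overlapped between the genotypes. Plk1, the polo kinase, ran from 10.5 to 19.1 CPM in WT/WT, from 7.98 to 37.1 in WT/R249C and from 2.26 to 28.1 in R249C/R249C. Birc5 (survivin) ran from 7.27 to 19.4, from 9.07 to 30.9 and from 3.98 to 14.9 CPM, and Bub1b, the BubR1 checkpoint protein, from 8.50 to 30.6, from 1.88 to 36.2 and from 1.29 to 20.7 CPM. Bub1b had a log2 fold change of -1.03 ± 1.47 in R249C/R249C against WT/WT. Kif11, the kinesin that separates the spindle poles, ran from 0.760 to 22.1 CPM over all libraries, and Aurka from 0 to 24.8 CPM. The interval of every one of these genes held 0 in all 3 comparisons.

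Ensa was the gene whose mutant and control libraries stood apart most plainly, and since that difference was known from earlier results, its values are a description. It was 24.4, 27.7 and 29.1 CPM in WT/WT, 43.6, 41.6, 41.3, 42.8 and 50.5 in WT/R249C, and 38.7, 51.8 and 87.2 in R249C/R249C. All 8 mutant libraries, in both batches, were above all 3 WT/WT libraries. Within batch A the single WT/WT library stood at 24.4 CPM and the 6 mutant libraries at 38.7 to 87.2, and within batch B the 2 WT/WT libraries stood at 27.7 and 29.1 and the 2 WT/R249C libraries at 42.8 and 50.5. The fitted log2 fold change was 0.75 ± 0.25 in WT/R249C and 1.27 ± 0.31 in R249C/R249C. R249C/R249C and WT/R249C overlapped, at a log2 fold change of 0.51 ± 0.32 in batch A, and of 0.15 without R249C/R249C replicate 3, the library at 87.2 CPM. Ensa was the only one of the 37 (2.70%) with no overlap in the higher direction in WT/R249C, beside 1.01% of the genes tested. Without Ensa, whose difference was known, the count was 0 of 20 mitosis genes and 0 of 16 replication genes. Alone among the 37 it was called by DESeq2, in R249C/R249C against WT/WT (adjusted p = 0.00717), a call that edgeR and limma voom did not make: over their alternatives its smallest adjusted p was 0.865.

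**Figure D5:**
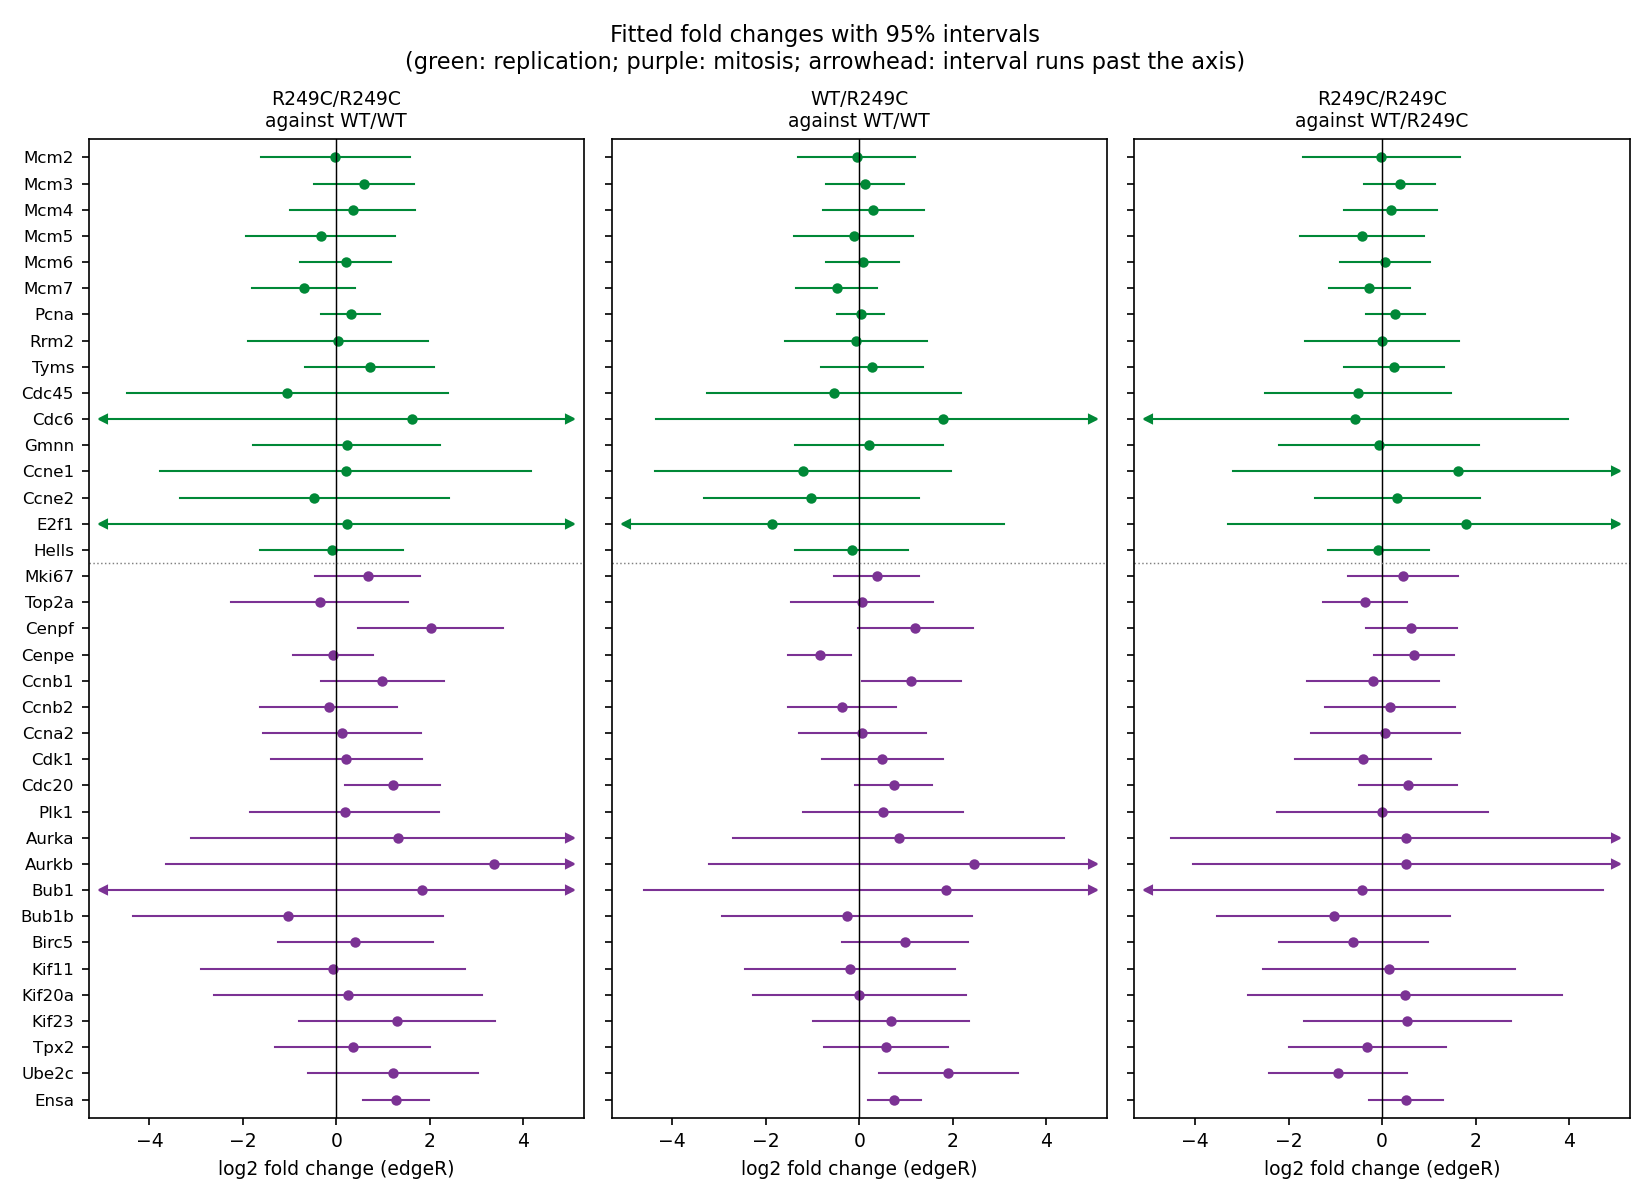
Fitted log2 fold changes (points, horizontal axis) with 95% intervals (lines) from edgeR for the 37 genes in the 3 comparisons, replication genes in green and mitosis genes in purple. Most intervals cross 0, the exceptions being Ensa, Cenpf and Cdc20 in the first panel and Ensa, Ube2c, Cenpe and Ccnb1 in the second.

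Single genes were also followed against Mki67 over libraries, in 6 relations on log2(CPM + 1) with permutation p-values and Benjamini-Hochberg adjustment over the 6. Over all 11 libraries Mki67 went with none of them past the threshold: Pearson's r was -0.02 for Top2a, 0.49 for Cenpf, 0.09 for Mcm2, 0.40 for Pcna, -0.13 for Cd3g, a T cell receptor subunit, and 0.16 for Epcam, and the smallest adjusted permutation p was 0.663. Spearman's rho was 0.100, 0.582, 0.3, 0.491, -0.327 and 0.282 in the same order, with a smallest adjusted permutation p of 0.384. With the libraries farthest from the median of Mki67 left out, WT/R249C replicates 2 and 5, r with Pcna was 0.912 over 9 libraries (adjusted permutation p = 0.00732). Within the 7 libraries of batch A, r with Pcna was 0.777 (permutation p = 0.0367, adjusted p = 0.22), and batch B holds too few libraries. WT/R249C replicate 5 had the highest Mki67, 58.8 CPM, with Pcna at 51.8 CPM, and replicate 2 the lowest, 15.1 CPM, with Pcna at 57.4 CPM.

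Other genes of the cycle were taken from 7 lists of 99 genes in all, of which 98 were found in the table, and none passed the edgeR test in any comparison. Of 24 genes of origins and forks, 17 had a higher fitted level in R249C/R249C than in WT/WT and 7 a lower one (median log2 fold change 0.20), though by plain mean CPM, with no batch term, 12 were higher. In WT/R249C 12 were higher and 12 lower (median -0.05). Chaf1a, a subunit of the chromatin assembly factor behind the fork, was the one with the smallest unadjusted p, at -1.31 ± 0.48 in WT/R249C (edgeR, unadjusted p = 0.0239; -0.80 without WT/WT replicate 3) and -0.38 ± 0.61 in R249C/R249C. Rfc4, of the clamp loader, was at -0.53 ± 0.32 and -0.17 ± 0.40. In R249C/R249C, 3 of the 24 genes (12.5%), Rfc4 among them, had no overlap in the lower direction, beside 4.4% of the genes tested. In the higher direction 1 (4.17%) had no overlap, beside 3.16%. In WT/R249C, 1 gene (4.17%), Rpa2, had no overlap in the lower direction, beside 1.73%, and 0 in the higher, beside 1.01%.

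Of 25 further genes of the spindle and kinetochore, 17 were higher and 8 lower in WT/R249C (median 0.30), where 51.5% of all genes tested were higher. In R249C/R249C 16 were higher and 9 lower (median 0.42), beside 49.1% of all genes higher. By plain mean CPM, with no batch term, 15 were higher in WT/R249C and 14 in R249C/R249C. Ttk, the Mps1 checkpoint kinase, was 3.32, 1.22 and 4.22 CPM in WT/WT, 7.79, 4.08, 34.1, 6.55 and 20.4 in WT/R249C, and 8.89, 5.70 and 10.7 in R249C/R249C. It was above all WT/WT libraries in 4 of 5 and 3 of 3 mutant libraries, with log2 fold changes of 2.24 ± 0.82 (edgeR, unadjusted p = 0.0232) and 1.45 ± 0.96 (unadjusted p = 0.167). Ncapd2, of condensin, was 5.49, 4.92 and 8.22 CPM in WT/WT, 17.9, 17.6, 18.9, 15.6 and 7.10 in WT/R249C, and 8.94, 14.7 and 22.3 in R249C/R249C. Its log2 fold changes were 1.19 ± 0.47 (edgeR, unadjusted p = 0.0319) and 1.08 ± 0.58 (unadjusted p = 0.0959). In R249C/R249C, Ttk and Ncapd2 were the 2 of 25 genes (8.0%) with no overlap in the higher direction, beside 3.16% of the genes tested. Bub3 and Prc1 were the 2 (8.0%) in the lower direction, beside 4.4%. In WT/R249C, 0 were in the higher direction, beside 1.01%, and 1 (4.0%), Bub3, was in the lower, beside 1.73%.

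Lists that set the pace of the cycle leaned less to either side. Of 15 genes of the Rb, E2F and DREAM list, 7 were higher and 8 lower in WT/R249C, and 8 higher and 7 lower in R249C/R249C. Within it E2f8, a repressor of E2F targets, was at 1.42 ± 0.46 in WT/R249C (edgeR, unadjusted p = 0.0135) and 1.30 ± 0.57 in R249C/R249C (unadjusted p = 0.0492), and Lin37, of DREAM, at -0.40 ± 0.18 (unadjusted p = 0.0494) and -0.42 ± 0.23 (unadjusted p = 0.0963). Lin37 was lower than all WT/WT libraries in each mutant library. It was the only one of the 15 (6.67%) without overlap, beside 1.73% of the genes tested in the lower direction in WT/R249C and 4.4% in R249C/R249C. Of 11 genes of the Cdk1 switch and the Ensa pathway, 6 were higher and 5 lower in WT/R249C and 5 higher and 6 lower in R249C/R249C. Ppp2r2d, a regulatory subunit of the phosphatase that Ensa restrains, was at 36.7, 32.4 and 15.8 CPM in WT/WT and at 12.9, 17.6 and 8.16 in R249C/R249C, a log2 fold change of -1.21 ± 0.48 (edgeR, unadjusted p = 0.0317; -0.71 without WT/WT replicate 1), and at -0.56 ± 0.38 in WT/R249C. Pkmyt1, which restrains Cdk1, was at 0.76 ± 0.32 in R249C/R249C against WT/R249C (unadjusted p = 0.0512).

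The last 3 lists split nearly evenly or hold few genes. Of 10 genes of the anaphase-promoting complex, 5 were higher and 5 lower in both mutant genotypes, with Fzr1, its G1 activator, at -0.46 ± 0.24 in R249C/R249C and Cdc27, a subunit, at -0.76 ± 0.36 in WT/R249C. Of 7 CDK inhibitors, 3 were higher in WT/R249C and 5 in R249C/R249C, while by plain mean CPM 2 and 1 were higher. Cdkn1a (p21) was at -0.03 ± 0.16 and 0.29 ± 0.20 and Cdkn2d at -0.07 ± 0.30 and -0.74 ± 0.37, the last at 0.07 without WT/WT replicate 1. Of 6 genes of the D cyclins and their kinases, 3 were higher in WT/R249C and 2 in R249C/R249C: Ccnd1 (cyclin D1) was at 0.40 ± 0.34 and 0.55 ± 0.42, both -0.24 without WT/WT replicate 1, and Cdk2, the partner of cyclin E, at -0.46 ± 0.46 and -0.76 ± 0.58. Between the mutant genotypes, 57 of the 97 genes of these lists that were tested were higher in R249C/R249C.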

How the data were processed

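For 11 bulk RNA libraries the authors deposited whole-number counts per gene with no scaling. The submitters' processing notes name FastQC, HISAT2, StringTie and build mm39, with no version. No label says how counts were made from StringTie output, with which annotation or with which strand setting, and the column names of the 7 batch A libraries alone carry the word trimmed. GENCODE M21 names gave symbols to 52073 of 56691 Ensembl identifiers. CPM used column totals. R 4.3.3 ran edgeR 4.0.16 (robust quasi-likelihood fit, TMM, filterByExpr with the fit's design, Benjamini-Hochberg adjustment, threshold 0.05, two-sided), with DESeq2 1.42.0 and limma 3.58.1 as alternatives, after a check on simulated data. R249C/R249C and WT/R249C were each compared with WT/WT in 1 fit with a batch term over all 11 libraries, and with each other in the 6 libraries of batch A. All 37 genes passed the filter in each comparison. In the simulated data edgeR called 0 of 67 genes changed 2-fold in each comparison. In R249C/R249C against WT/WT it called 9 of 67 changed 4-fold and 22 of 66 changed 8-fold. The values were 12 and 29 in WT/R249C against WT/WT, and 2 and 21 in R249C/R249C against WT/R249C. A gene that did not pass can therefore still differ. Promoter words were counted in RefSeq windows of GRCm38.p6.

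The genes and lists were chosen with earlier results of these data known. Fold changes are printed for 12 chosen genes, for the 3 genes of smallest unadjusted p in each direction of a comparison, and for up to 2 genes of smallest unadjusted p per pathway list; in the descriptions of Mcm3, Ccne1, Tyms and others, values outside that rule were chosen after they were seen. Floors cover counting error only, since reads carry no molecular identifiers. Alternatives changed the scaling, the filter, the test, the batch term, the replicate block, the libraries of contradictory label and each library in turn.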

Additional observations from a re-analysis of the deposited data

Results flagged for a closer look

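Cenpf in WT/R249C replicate 5 stood at 48.2 CPM while the other 4 WT/R249C libraries lay between 13.7 and 23.3 CPM, a gap of 0.723 of the group's range where Dixon's 95% limit for 5 values is 0.71. Ensa in the same library stood at 50.5 CPM while the other 4 lay between 41.3 and 43.6 CPM, a gap of 0.747 of the range. In all, 39 values were tested in the group of 5, and chance flags about 1 in 20. This library is also the one whose mitosis sum was high, 663 CPM, beside the lowest replication sum, 407 CPM, and one of the 2 with contradictory genotype labels.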

How the results depend on the processing

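edgeR made 0 calls in each comparison under every alternative of scaling, filter, batch term and left-out library that was run. DESeq2 made 522, 344 and 33 calls (R249C/R249C against WT/WT, WT/R249C against WT/WT, R249C/R249C against WT/R249C) and limma voom made 0, while edgeR had 1020, 994 and 256 genes at an unadjusted p below 0.05. The cause of that difference was not tested. Alternatives were run for 79 fitted fold changes, which hold all those printed, and 43 kept their sign under every alternative that was run. Values of those that did not follow on the log2 scale.

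The replicate number of the titles was tried as a replicate block, although same-numbered libraries did not deviate together (correlations of -0.128 to 0.124, and the own number was the best match in 4 of 18 tries). With the block, edgeR again made 0 calls. Medians were 0.78 (replication) and 0.99 (mitosis) in R249C/R249C against WT/WT and 0.60 (replication) in WT/R249C against WT/WT, with all-gene medians of 0.32 and 0.35. Sign changes with the block were Mcm2 0.55, Mcm5 0.69, Hells 0.64, Bub1b 0.63, Ccnb2 0.23, Cenpe 0.21, Rfc4 0.0286 and Cdk2 0.0371 in R249C/R249C against WT/WT, and Top2a -0.0669, Mcm2 0.99, Mcm5 1.01, Rrm2 0.69, Hells 0.59, Mcm7 0.14, Ccne2 0.49, Cdkn1a 0.0369 and Cdk2 0.48 in WT/R249C against WT/WT, and Rrm2 0.25 and Hells 0.0306 in R249C/R249C against WT/R249C.

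In batch A alone, the sign changed for Mcm2 0.13, Mcm5 0.55, Hells 0.42, Bub1b 0.21 and Cenpe 0.23 in R249C/R249C against WT/WT, and Mki67 -0.17, Top2a -0.16, Ccna2 -0.0145, Mcm2 0.13, Mcm5 0.96, Pcna -0.0343, Rrm2 0.31, Hells 0.49, Ccne2 0.12, Cdkn1a 0.0276 and Cdk2 0.28 in WT/R249C against WT/WT. In batch B alone it changed for Cdkn2d 0.49 and Ccnd1 -0.24 in WT/R249C against WT/WT. Without WT/R249C replicates 4 and 5 it changed for Mcm2 0.11, Mcm5 0.54, Hells 0.42, Bub1b 0.19 and Cenpe 0.22 in R249C/R249C against WT/WT, and Mki67 -0.20, Top2a -0.19, Ccna2 -0.0478, Mcm2 0.11, Mcm5 0.94, Pcna -0.0621, Rrm2 0.29, Hells 0.47, Ccne2 0.0868, Cdkn1a 0.00135 and Cdk2 0.25 in WT/R249C against WT/WT. With those libraries counted as R249C/R249C it changed for Rrm2 -0.0646 in R249C/R249C against WT/WT, and Mcm5 0.32, Pcna -0.11, Rrm2 0.0142 and Hells 0.0137 in WT/R249C against WT/WT. Without the batch term it changed for Ccna2 -0.25 and Chaf1a 0.0429 in R249C/R249C against WT/WT, and Ccna2 -0.0606 and Mcm5 0.0125 in WT/R249C against WT/WT. With limma voom it changed for Top2a 0.22, Mcm5 0.0733, Hells 0.0462 and Ccnb2 0.32 in R249C/R249C against WT/WT, and Cdkn1a 0.0235 and Cdkn2d 0.0119 in WT/R249C against WT/WT, and Ccnb1 0.39, Mcm5 0.19, Rrm2 0.70 and Hells 0.0438 in R249C/R249C against WT/R249C. With DESeq2 it changed for Pcna -0.00337 in WT/R249C against WT/WT, and Mcm2 0.00821 and Rrm2 0.0208 in R249C/R249C against WT/R249C. With DESeq2 size factors in edgeR it changed for Pcna -0.00361 in WT/R249C against WT/WT, and Mcm2 0.00825 and Rrm2 0.0209 in R249C/R249C against WT/R249C. With column totals it changed for Rrm2 -0.0573 in R249C/R249C against WT/WT. With no filter on low counts it changed for Mcm2 0.0174 in R249C/R249C against WT/WT, and Pcna -0.00167 in WT/R249C against WT/WT, and Mcm2 0.0102 and Rrm2 0.0409 in R249C/R249C against WT/R249C. With all 11 libraries and a batch term it changed for Mcm2 0.0337, Rrm2 0.0943 and Hells 0.0627 in R249C/R249C against WT/R249C.

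Leaving out each library in turn gave, where a sign changed, these ranges for single genes and medians. In R249C/R249C against WT/WT they were Top2a -0.81 to 0.18, Ccna2 -0.37 to 0.47, Cdk1 -0.26 to 0.55, Mcm2 -0.94 to 0.46, Mcm5 -1.17 to 0.0287, Rrm2 -0.50 to 0.34, Hells -0.63 to 0.26, Ccnb2 -0.53 to 0.0969, Cenpe -0.37 to 0.0935, Chaf1a -0.64 to 0.0177, Rfc4 -0.26 to 0.26, Cdkn2d -0.87 to 0.0709 and Ccnd1 -0.24 to 0.79, and the replication median ran from -0.22 to 0.34. In WT/R249C against WT/WT they were Top2a -0.56 to 0.83, Ccna2 -0.59 to 0.36, Mcm2 -0.22 to 0.22, Mcm5 -0.79 to 0.23, Pcna -0.16 to 0.14, Rrm2 -0.72 to 0.34, Hells -0.61 to 0.27, Cdkn1a -0.14 to 0.071, Cdkn2d -0.28 to 0.49 and Ccnd1 -0.24 to 0.66, and the replication median ran from -0.33 to 0.20. In R249C/R249C against WT/R249C they were Ccnb1 -0.56 to 0.38, Ccna2 -0.28 to 1.08, Cdk1 -0.84 to 0.28, Mcm2 -0.94 to 0.45, Mcm5 -0.81 to 0.14, Rrm2 -0.48 to 0.39 and Hells -0.39 to 0.24, and the replication and mitosis medians ran from -0.15 to 0.27 and from -0.13 to 0.57. The relation of Mki67 turned sign with Top2a (0.198 without WT/R249C replicates 2 and 5, 0.269 in batch A), Cd3g (0.172 and 0.198) and, in batch A, Epcam (-0.34), and with Pcna it passed the threshold without those libraries (0.912). A filter by genotype alone, chosen after seeing the data, changed no call. In R249C/R249C against WT/WT the 95% interval of Pcna spans -0.34 to 0.94 and that of Bub1, which has libraries at 0 counts, -6.21 to 9.89.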
